A study of Mus musculus with 20 samples.

Results

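Of 20 polyadenylated RNA libraries of the BNST (bed nucleus of the stria terminalis) of mice, 7 held more than 160 CPM of Slc17a7 (CPM, counts per 1000000 counts of the library), which encodes a vesicular glutamate transporter of forebrain excitatory neurons. These 7 Slc17a7-rich libraries, chosen by their measured Slc17a7 level alone, were set beside the other 13, pooled over sex and treatment, and the genes that travelled with Slc17a7 were described. The BNST is a limbic forebrain nucleus made mostly of GABA neurons. The libraries formed 4 groups of 5, named by the labels as susceptible females, control females, susceptible males and control males. Susceptible mice came from a chronic restraint stress model of anxiety, in which an animal is repeatedly confined, and control mice carry the label Control. Strain, age, the number of mice behind a library and the way susceptibility was judged were not given in the sources used here. P-values therefore measure only the spread between libraries, which may be technical.

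Glutamate neurons of the cortex, hippocampus and basolateral amygdala load synaptic vesicles through Slc17a7, whereas those of thalamus and hypothalamus mostly use its relative Slc17a6. During development of the dorsal forebrain, the basic helix-loop-helix factors Neurod1, Neurod2 and Neurod6 and the T-box factor Tbr1 drive the excitatory neuron program, and many of these genes stay on in the adult. Slc17a7 is not particular to cortex, since the medial habenula and other small populations also express it. A BNST dissection lies close to striatum, thalamus, hypothalamus and amygdala, and in bulk RNA a smaller share of cells and less RNA per cell cannot be told apart.

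Total counts ranged from 14637636 to 17862840 per library, and 14055 of 19214 genes reached a mean of 1 CPM over the 20 libraries. No pair of libraries of a group agreed within sampling noise. The labelled tissue was checked against BNST and GABA markers: Gad1, a GABA-synthesizing enzyme, had a median of 696 CPM (567 to 819) in the Slc17a7-rich and 762 CPM (468 to 903) in the other libraries. Cyp19a1, the aromatase of the posterior BNST, was near its detection limit, with a median of 0.423 CPM (0.112 to 1.05) in the Slc17a7-rich and 0.547 CPM (0.0672 to 1.42) in the other libraries. Lhx8, Nkx2-1 and Esr1, also checked, were lower in the Slc17a7-rich libraries. Their medians were 14.8, 7.95 and 4.09 CPM there and 24.6, 14.2 and 7.79 CPM in the other libraries, with overlap. Gad2, Slc32a1 and Dlx5 had lower medians in the Slc17a7-rich libraries too, and Dlx1 and Dlx6 higher ones.

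Slc17a7 defined the split, so its values and every difference between the sides are given as a description with no test. Among the Slc17a7-rich libraries it had 671 CPM in susceptible female 5, 626 in control male 5, 621 in control female 5, 355 in control female 3, 222 in control male 2, 193 in control male 4 and 181 in susceptible male 2. The other 13 libraries lay between 11.2 and 142 CPM, with a median of 47.7. Just below the threshold stood susceptible female 3 (142 CPM), susceptible female 2 (131) and control male 3 (120), so the level ran on from one side to the other. Within the Slc17a7-rich side the 3 highest libraries stood close together and the 3 lowest lay nearer to the threshold than to them. The 3 highest all carry replicate number 5, whereas susceptible male 5 had 97.3 CPM. What the number stands for was not given.

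**Figure D1:**
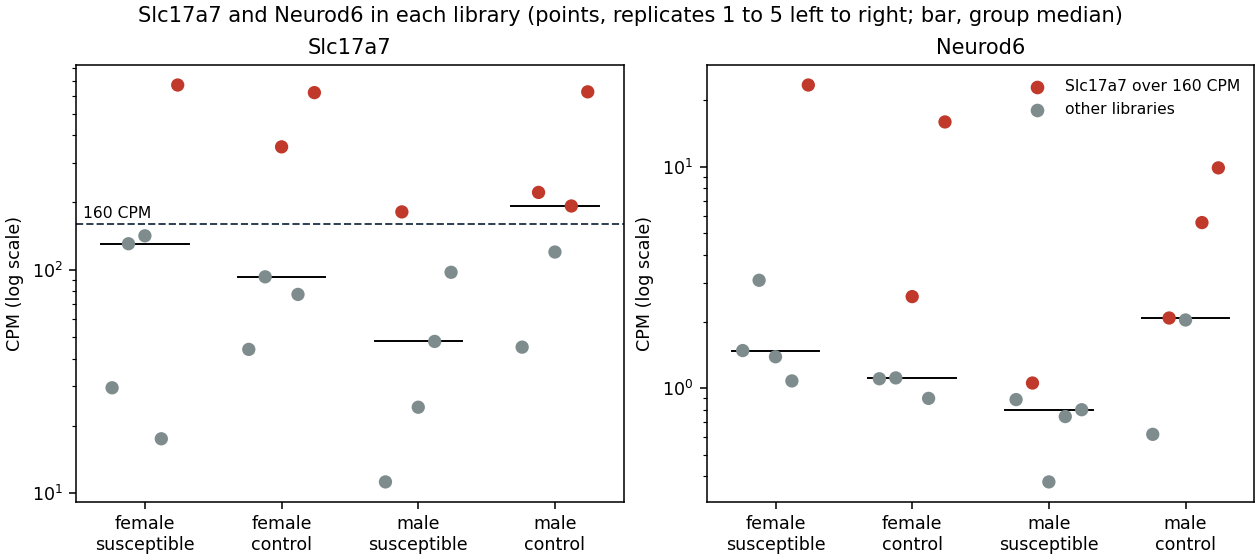
Slc17a7 and Neurod6 in CPM (log axis) in each library, by group; points are libraries, red where Slc17a7 exceeded 160 CPM (dashed line), and bars are group medians. Slc17a7-rich libraries occur in every group, and 3 of them (1.05 to 2.59 CPM) fall within the Neurod6 range of the other libraries.

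Neurod6, a pyramidal neuron factor and the second marker given for these libraries, did not separate them. It had 23.4 CPM in susceptible female 5, 15.9 in control female 5, 9.89 in control male 5 and 5.60 in control male 4. It had 2.59 CPM in control female 3, 2.07 in control male 2 and 1.05 in susceptible male 2. The other libraries ranged from 0.377 to 3.07 CPM (median 1.08), so the lower 3 of the Slc17a7-rich libraries overlapped with them. The label of cortical excitatory RNA is therefore carried by Neurod6 in 4 of 7 libraries, and the libraries are called Slc17a7-rich in what follows.

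The start-site regions of the gene that set the split, of the gene that followed it most closely over the 20 libraries (Neurod2) and of the gene that followed it within the Slc17a7-rich libraries (Tbr1) are shown so that the letters behind these members can be seen. Each is a RefSeq promoter on GRCm38.p6, 250 bases before to 50 after an annotated start, 5′ to 3′ on the gene's strand: Slc17a7 at chr7:45163671-45163970 (+), Neurod2 at chr11:98329596-98329895 (-) and Tbr1 at chr2:61804203-61804502 (+). Capitals mark CAGATG, an E-box of the type bound by NeuroD factors.
Slc17a7: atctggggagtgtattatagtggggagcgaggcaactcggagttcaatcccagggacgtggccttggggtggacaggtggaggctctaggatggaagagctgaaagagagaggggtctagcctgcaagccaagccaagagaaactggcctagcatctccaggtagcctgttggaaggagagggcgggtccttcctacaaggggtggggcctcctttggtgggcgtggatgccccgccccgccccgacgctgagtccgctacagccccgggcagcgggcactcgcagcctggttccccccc
Neurod2: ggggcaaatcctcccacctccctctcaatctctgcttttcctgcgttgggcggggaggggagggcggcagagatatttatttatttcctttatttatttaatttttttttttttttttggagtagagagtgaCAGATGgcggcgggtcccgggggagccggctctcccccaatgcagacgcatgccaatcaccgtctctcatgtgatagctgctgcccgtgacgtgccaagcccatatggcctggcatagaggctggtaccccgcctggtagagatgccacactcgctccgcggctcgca
Tbr1: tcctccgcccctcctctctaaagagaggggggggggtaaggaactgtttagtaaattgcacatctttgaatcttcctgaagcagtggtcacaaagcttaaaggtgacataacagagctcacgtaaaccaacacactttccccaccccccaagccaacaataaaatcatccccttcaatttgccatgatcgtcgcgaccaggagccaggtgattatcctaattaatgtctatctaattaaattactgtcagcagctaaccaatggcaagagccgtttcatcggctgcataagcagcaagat
Of 27 named genes searched, 21 had 1 or more entries, giving 30 promoters of 300 bases. CAGATG or its reverse complement CATCTG was in 9 of 30 (30.0%; Cck, Mef2c, Neurod2, Schip1 and Zbtb18), against 17.2% of all 32851 promoters. Most of the 9 belong to 1 gene, Zbtb18, and some of its windows overlap and hold the same site. The 9 are therefore not independent, and the higher share rests on that gene. CAGCTG, a palindromic E-box, was in 4 of 30 (13.3%) against 16.3%. The site motif of MEF2 factors, on either strand, was in 0 of 30 against 0.164%. No motif of the 3 can overlap another. A match is a run of letters, and no binding was measured.

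A core list of 16 genes of telencephalic excitatory neurons was higher in the Slc17a7-rich libraries throughout. All 16 had a higher median than in the other libraries, beside 41.6% of all genes, and 8 of 16 were at least 2-fold higher, beside 0.42% of all genes. The list median of the log2 difference was 1.05, against -0.03 over all genes. The summed level of the list was 819 to 1965 CPM (median 1196) in the Slc17a7-rich libraries and 409 to 709 CPM (median 531) in the other libraries, with no overlap. Since the list was drawn up knowing these data and Slc17a7 belongs to it, these counts describe the split and support nothing about it.

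Among the transcription factors of the list, Neurod2 had the largest difference of medians. It had 39.8 CPM in susceptible female 5, 33.3 in control female 5, 31.8 in control male 5, 15.2 in control female 3, 10.7 in control male 4, 8.11 in susceptible male 2 and 6.05 in control male 2. The same gene ranged from 0.615 to 5.49 CPM (median 1.73) in the other libraries, an 8.36-fold difference of medians with no overlap. Tbr1, which specifies early-born deep-layer and subplate neurons, had 77.2, 71.2, 64.4 and 45.7 CPM in susceptible female 5, control male 5, control female 5 and control female 3. Its lower values among the Slc17a7-rich libraries, 26.9 in susceptible male 2, 26.4 in control male 2 and 23.0 in control male 4, stood just over the highest of the other libraries (22.9 CPM; lowest 4.40, median 15.2). Tbr1 thus had its high level in the same 4 libraries that led Slc17a7. Emx1, a homeobox gene of the dorsal telencephalon, had a median of 1.90 CPM in the Slc17a7-rich libraries and 0.371 CPM in the other libraries, and the sides overlapped.

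The synaptic and secreted members were mixed. Slc30a3, which loads zinc into vesicles of cortical and hippocampal terminals, had 12.9 to 48.4 CPM (median 44.5) in the Slc17a7-rich libraries and 1.30 to 13.6 CPM (median 6.07) in the other libraries. Only control male 4 of the Slc17a7-rich libraries lay inside the range of the others for this gene. Nptx1, a secreted pentraxin that gathers AMPA receptors, had 96.3 to 215 CPM in the Slc17a7-rich and 64.5 to 89.8 CPM in the other libraries. Cck, the cholecystokinin peptide gene, and Nrn1, which encodes neuritin, overlapped nearly completely: Cck had 12.2 to 85.6 CPM in the Slc17a7-rich and 6.35 to 68.6 CPM in the other libraries. Neurod1 reached its highest level, 10.8 CPM, on the other side, in susceptible female 3.

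Over all genes, 16 were higher without overlap (0.114% of the 14055) and 2 were lower without overlap (0.0142%). Of the 16, 7 differed at least 2-fold (0.0498%): Neurod2, Slc17a7, Mas1, Rtn4rl2, Tbr1, Rasl10a and Lipg. Mas1, a receptor for angiotensin-(1-7) that is abundant in hippocampus and amygdala, had 8.11 to 24.8 CPM in the Slc17a7-rich and 0.290 to 7.72 CPM in the other libraries. Rtn4rl2, a relative of the Nogo receptor that restrains axon growth, had 7.17 to 23.3 CPM in the Slc17a7-rich and 0.290 to 6.08 CPM in the other libraries. Rasl10a, a small Ras-like GTPase, had 10.6 to 22.6 CPM in the Slc17a7-rich and 1.68 to 7.59 CPM in the other libraries. Lipg, endothelial lipase, was low everywhere, with 1.78 to 4.59 CPM in the Slc17a7-rich and 0.466 to 1.63 CPM in the other libraries. For all 4 of these genes the 2 highest libraries were susceptible female 5 and control female 5.

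The remaining 9 differed by less than 2-fold: Fam163b, Plk5, Ttc9b, Nptx1, Schip1, Hrk, Enc1, Pip4k2c and, outside the naming rule and named after its value was seen, Fbxo34. Enc1, an actin-binding kelch protein abundant in cortex, was the highest of them, with 327 to 575 CPM in the Slc17a7-rich and 222 to 303 CPM in the other libraries. Hrk, a BH3-only cell death gene of neurons, had 46.1 to 70.2 CPM in the Slc17a7-rich and 18.1 to 45.1 CPM in the other libraries. The 2 genes lower without overlap differed little: Fchsd2, an endocytic adaptor, had 60.1 to 81.5 CPM in the Slc17a7-rich and 82.0 to 95.5 CPM in the other libraries, and Arsk, a lysosomal sulfatase, had a median of 10.9 CPM in the Slc17a7-rich and 13.7 CPM in the other libraries. The counts depend on the threshold: at 250 CPM, which keeps 4 libraries, 63 genes were higher without overlap, 7 of them among the 16, and at 100 CPM, which takes 10 libraries, 6 were, 2 of them among the 16. They depend on single libraries too, with 37 genes higher and 28 lower without control female 3, 26 higher without control male 3, and 25 higher and 9 lower without susceptible female 2. Of genes at least 2-fold higher, 15 did not overlap without control male 4 and 11 without susceptible female 2. The count of lower genes was also 10 without susceptible male 2 and 5 without control male 2. Leaving out a library can only keep or raise a count at any fold, because it cannot add overlap. The thresholds give sides of unlike size, so counts without overlap are not directly comparable between them.

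Genes were also ranked by their agreement with Slc17a7 over the 20 libraries. Spearman's rho is given as a description, over libraries that share a labelled tissue and a depth range but differ in RNA of neighbouring structures. It was highest for Neurod2 (0.947), Sv2b (0.911), Brsk1 (0.907) and Gfod1 (0.907). Podn (0.896), Adrb1 (0.896), Gpd1 (0.895), Kcnab2 (0.884), Brinp1 (0.883), Gramd1b (0.883), Rtn4rl2 (0.881) and Slc30a3 (0.880) came next. Sv2b, a synaptic vesicle glycoprotein found mainly at glutamate terminals, had 155 to 327 CPM (median 234) in the Slc17a7-rich and 69.8 to 200 CPM (median 117) in the other libraries. Adrb1, the beta-1 adrenergic receptor, had a median of 23.3 CPM in the Slc17a7-rich and 16.8 CPM in the other libraries. The most negative ranks belonged to Peg10 (-0.905), Fbxo10 (-0.889), Fchsd2 (-0.889), Smim19 (-0.887), As3mt (-0.886) and Fhl1 (-0.880). Peg10, an imprinted gene derived from a retrotransposon, had 65.9 to 270 CPM (median 185) in the Slc17a7-rich and 184 to 442 CPM (median 294) in the other libraries, so these ranges overlapped.

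Lists of genes that mark single cortical layers had smaller median differences than the core list. Of 12 upper-layer genes 5 were higher (median log2 difference -0.08, beside 41.6% of all genes higher), of 17 deep-layer genes 13 were higher (0.19), and of 11 genes of layer 6b and claustrum 9 were higher (0.27). Nr4a2, an orphan nuclear receptor of claustrum and layer 6b, had 9.56 to 69.3 CPM in the Slc17a7-rich and 5.74 to 30.7 CPM in the other libraries. Ccn2, a secreted matricellular protein of subplate neurons, had 5.32 to 18.3 CPM (median 7.58) in the Slc17a7-rich and 3.08 to 6.84 CPM (median 4.53) in the other libraries. Of 12 hippocampal genes 7 were higher (0.14; at 250 CPM 5 were, with a median of -0.09), whereas Prox1, the dentate granule cell factor, was lower at a median of 16.4 CPM in the Slc17a7-rich and 34.5 CPM in the other libraries.

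Markers of neighbouring structures moved with the split as well, and their part in the results was not tested. Of 24 striatal projection neuron genes 21 were higher in the Slc17a7-rich libraries (median log2 difference 0.55). Their summed level was 3302 to 10620.0 CPM (median 8346) in the Slc17a7-rich and 1501 to 9167 CPM (median 5531) in the other libraries. This direction turned with the threshold: at 250 CPM, 7 of 24 were higher, with a median of -0.13. Of 19 thalamic genes 18 were lower (-0.91), and of 13 hypothalamic genes 12 were lower (-1.79). Slc17a6, the glutamate transporter of thalamus and hypothalamus, had 12.9 to 261 CPM (median 22.2) in the Slc17a7-rich and 32.3 to 465 CPM (median 113) in the other libraries. The value of 261 CPM belonged to control female 3, which also held 105 CPM of the thalamic factor Tcf7l2 and stood apart from the other Slc17a7-rich libraries, whose summed thalamic level was 439 to 577 CPM. The hypothalamic factor Sim1 and the peptide gene Oxt had medians of 0.0593 and 1.75 CPM in the Slc17a7-rich and of 2.42 and 19.2 CPM in the other libraries. Without control female 3, 17 of 19 thalamic and 12 of 13 hypothalamic genes were still lower.

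**Figure D2:**
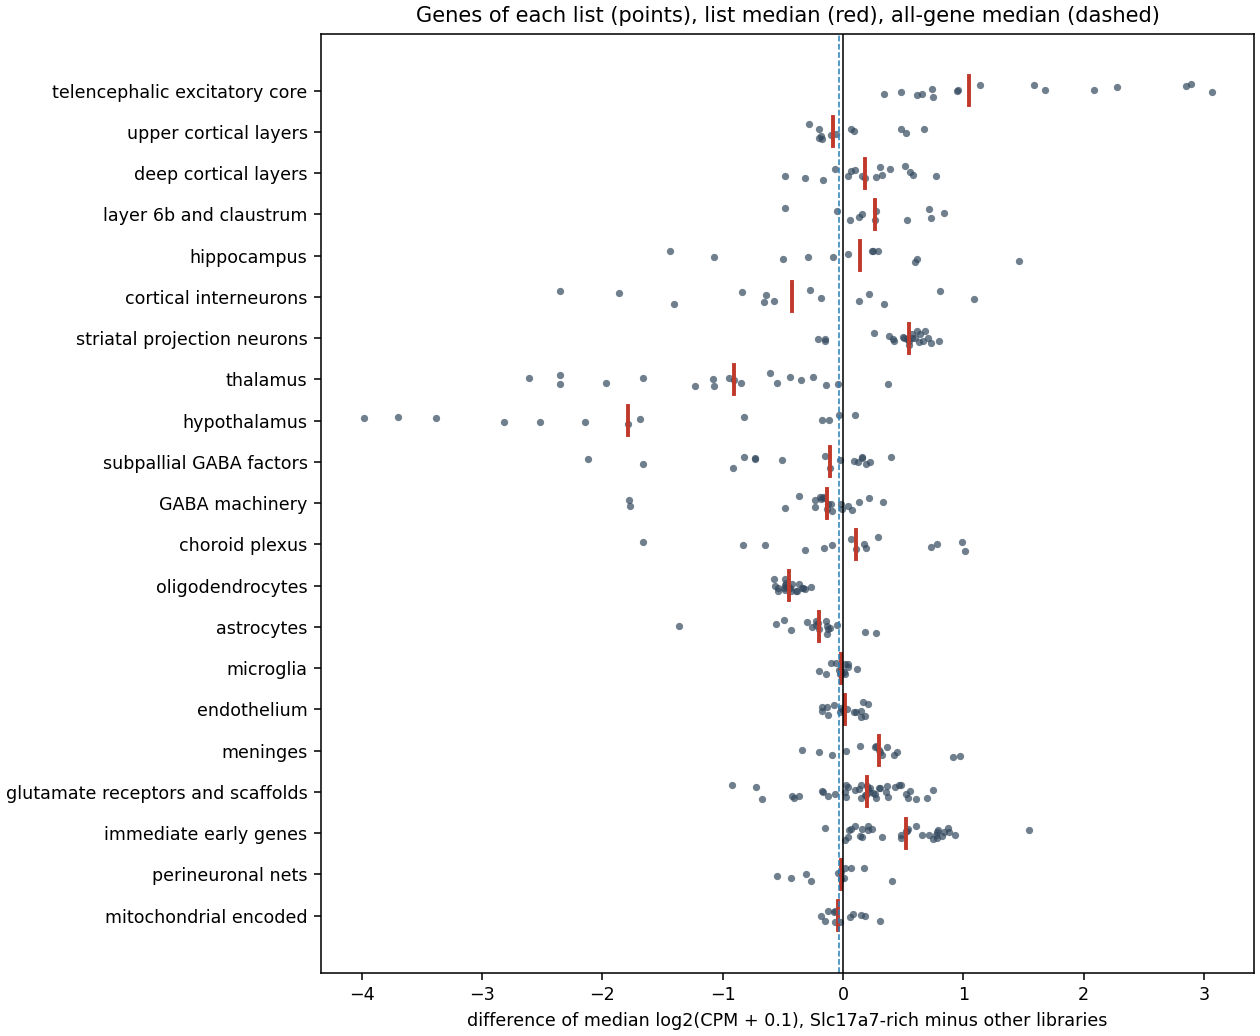
Difference of median log2(CPM + 0.1), Slc17a7-rich minus other libraries, for each measured gene (points) of 21 lists, with list medians (red bars) and the median of all genes (dashed, -0.03). The core list lies wholly right of 0 (median 1.05), oligodendrocyte genes wholly left (-0.45) and most hypothalamic genes far left (-1.79).

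Glial, vascular and synaptic lists gave smaller differences. All 22 oligodendrocyte genes were lower (median -0.45), beside 58.4% of all genes. Cnp, a myelin enzyme, had a median of 295 CPM in the Slc17a7-rich and 428 CPM in the other libraries, and both sides overlapped for every member. Of 18 astrocyte genes 16 were lower (-0.20), but their summed level did not separate the sides (7790.0 to 8832 CPM in the Slc17a7-rich, 7737 to 9192 CPM in the other libraries). Microglial (6 of 14 higher), endothelial (9 of 16), perineuronal net (5 of 12) and mitochondrially encoded (5 of 12) genes had list medians between -0.04 and 0.02, and with TMM scaling 10 of 14 microglial genes were higher. The direction of the mitochondrial list rested on the threshold and on single libraries: 12 of 12 genes were higher at 250 CPM (median 0.093), 10 of 12 without control male 5 or susceptible male 2, 9 of 12 without control male 4 and 8 of 12 without control female 3. Of 15 meningeal genes 12 were higher (0.30). Meningeal sums were 83.1 to 140 CPM in the Slc17a7-rich and 58.4 to 133 CPM in the other libraries.

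Neuronal activity and transmission genes followed a range of directions. Of 32 immediate early genes, which neurons switch on within minutes of firing, 31 were higher in the Slc17a7-rich libraries (median 0.53). Arc, which trims AMPA receptors from active synapses, had 73.2 to 251 CPM (median 144) in the Slc17a7-rich and 40.3 to 149 CPM (median 75.7) in the other libraries. Ptgs2, an inducible cyclooxygenase of excitatory neurons, had a median of 8.70 CPM in the Slc17a7-rich and 2.91 CPM in the other libraries, the only member over 2-fold. Of 41 glutamate receptor and scaffold genes 31 were higher (0.20), led by Homer1 and Camk2a. The largest difference in this list was a lower one, in the receptor gene Grm2. It had medians of 9.54 CPM in the Slc17a7-rich and 18.2 CPM in the other libraries. The NMDA receptor subunit gene Grin2d was also lower, with medians of 35.1 CPM in the Slc17a7-rich and 57.9 CPM in the other libraries. Of 21 GABA machinery genes 16 were lower (-0.13). The receptor subunit genes Gabre and Gabrq, which lie on the X chromosome and are abundant in hypothalamus, had medians of 3.56 and 13.04 CPM in the Slc17a7-rich and of 12.4 and 44.7 CPM in the other libraries. Of 17 subpallial GABA factors 10 were lower (-0.11) and of 14 cortical interneuron genes 9 were lower (-0.42), shares near the 58.4% of all genes that were lower. Vip, an interneuron peptide gene, was among the 5 that were higher, with medians of 7.78 CPM in the Slc17a7-rich and 3.61 CPM in the other libraries. It was the only interneuron gene at least 2-fold higher, whereas 3 were at least 2-fold lower.

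Choroid plexus RNA did not keep to one side of the threshold, whereas the habenular genes Pou4f1 and Chrnb4 were highest in libraries below it. Of 15 choroid plexus genes 9 were higher in the Slc17a7-rich libraries (median log2 difference 0.10), and of 8 habenular genes 2 were higher (-0.29). The choroid direction rested on the threshold and on single libraries: 14 of 15 were higher at 250 CPM (median 1.12), but 6 of 15 without control female 3 or without control male 5 (-0.028 each) and 7 of 15 without susceptible male 2 (-0.0040). The choroid list summed to 3783 CPM in control female 3 and 3066 CPM in control male 5 of the Slc17a7-rich libraries, and to 3727 CPM in susceptible female 3 and 3266 CPM in control female 2 of the others. Ttr, the transthyretin gene, ranged from 7.17 to 1952 CPM in the Slc17a7-rich and from 7.05 to 2005 CPM in the other libraries. Susceptible female 3 held 20.3 CPM of Pou4f1, the POU factor of medial habenula neurons, susceptible male 5 held 8.26 CPM and control female 2 held 1.52 CPM, whereas the gene reached at most 0.181 CPM in every Slc17a7-rich library. Chrnb4, the nicotinic subunit of habenular neurons, had 17.8, 7.39 and 2.28 CPM in the same 3 libraries and 0.242 to 1.06 CPM in the Slc17a7-rich libraries. These 3 libraries, which also held 2077 to 2644 CPM of the thalamic list, had 92.9 to 142 CPM of Slc17a7. The habenular list was drawn up after their values were seen. A high thalamic sum was not particular to them: control female 1 held 2494.5 CPM, with 0.174 CPM of Pou4f1 and 43.9 CPM of Slc17a7.

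**Figure D3:**
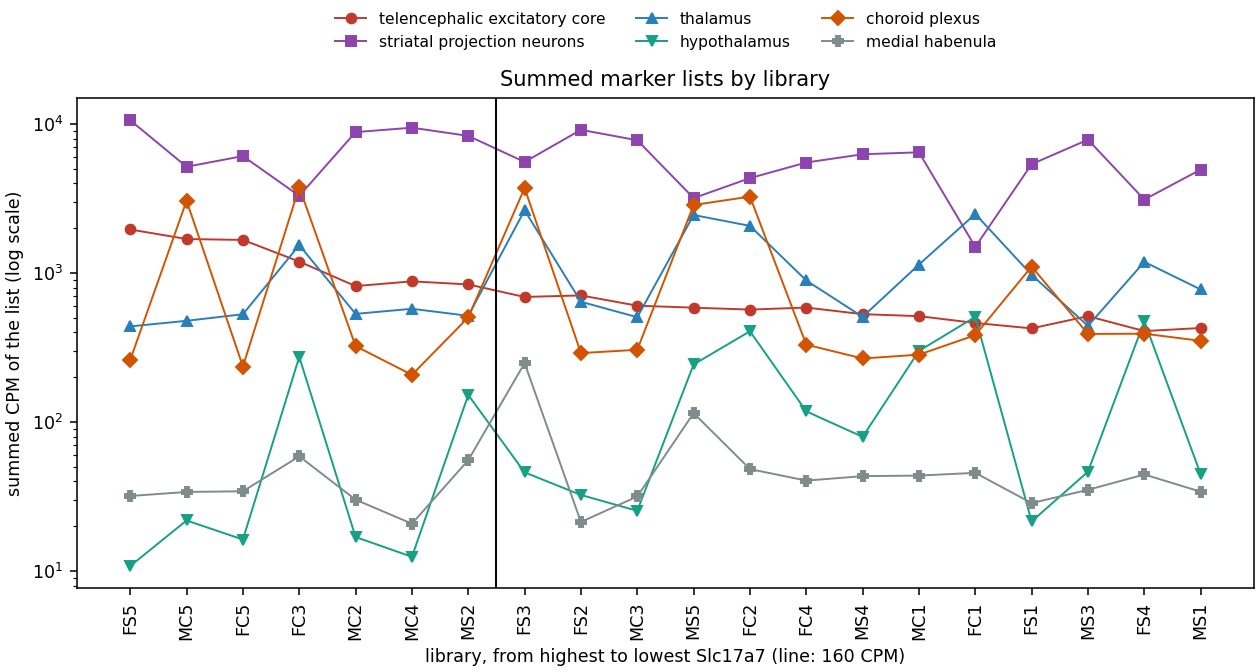
Summed CPM of 6 marker lists in each library (log axis), libraries ordered from highest to lowest Slc17a7 with the 160 CPM line (letters as in the map of genes by library). The core list declines from 1965 CPM at the left, thalamic and choroid sums rise and fall on both sides, and the habenular sum reaches 249 CPM in FS3.

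Whether genes followed Slc17a7 within each side was asked with a slope on log2 Slc17a7 CPM, fitted with edgeR's quasi-likelihood test over 14883 genes without Slc17a7. A slope of 1 means that a gene changed in proportion to Slc17a7. In the 7 Slc17a7-rich libraries, Tbr1 was the 1 gene called (0.00672% of those tested), with a slope of 0.88 ± 0.07 (standard error; edgeR adjusted p = 0.00572). DESeq2 called 88 genes, and without control female 3 edgeR called 4. All 15 core genes had positive slopes (median 0.76), beside 49.7% of all genes, and 14 of 15 had an unadjusted p under 0.05, beside 3.35% of all genes with a positive slope. Since the core list was drawn up knowing these data, its slope counts are a description and support nothing about the list. Neurod2 (1.20 ± 0.14) and Rtn4rl2 (0.88 ± 0.10) each had an edgeR adjusted p of 0.0893. Neurod6 had a steep but uncertain slope (1.49 ± 0.37, edgeR adjusted p = 0.515), and that of Nrn1 was 0.59 ± 0.38.

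The 3 lowest of these 7 libraries were male and 3 of the 4 highest were female. With sex as a term, chosen after seeing the data, Tbr1 had a slope of 0.85 (edgeR adjusted p = 0.0222) and all 15 core slopes stayed positive (median 0.56). The Tbr1 call was lost without control male 2 (slope 0.86, edgeR adjusted p = 0.0692) or control male 4 (0.85, 0.0564). Beyond the core list, 30 of 32 immediate early genes had positive slopes (median 0.31), beside 49.7% of all genes. Of these, 11 had an unadjusted p under 0.05 by edgeR, beside 3.35% of all genes with a positive slope. Of 24 striatal genes 23 had negative slopes (-0.12), 0 with an unadjusted p under 0.05, and thalamic genes were mixed (6 of 19 positive). In each of these 3 lists 0 genes were called.

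In the 13 other libraries, no gene was called by edgeR (0.0% of 14883; smallest adjusted p = 0.285), with 956 genes at an unadjusted p under 0.05 (6.42%) and 37 genes called by DESeq2. The smallest p belonged to Neurod2 (slope 0.80 ± 0.13, edgeR adjusted p = 0.285), whose level thus followed Slc17a7 in estimate on both sides of the threshold. Of 15 core genes 11 had positive slopes (median 0.26), beside 51.3% of all genes, and 6 had an unadjusted p under 0.05, beside 3.25% with a positive slope. These counts too are a description, as the list was drawn up knowing these data. Slc30a3 had a slope of 0.59 ± 0.15 (edgeR adjusted p = 0.439), and leaving out the libraries with over 1 CPM of the hypothalamic peptide gene Pmch made it the only gene called (0.81, edgeR adjusted p = 0.00846). Tbr1 had a slope of -0.03 ± 0.12 and Nptx1 of -0.04 ± 0.03. The difference between the slopes of the 2 sides was not tested.

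Below the threshold several lists of other structures also had mostly positive slopes on Slc17a7. All 19 thalamic genes (median slope 0.40), all 15 choroid plexus genes (0.94) and all 7 tested habenular genes (0.62) had positive slopes, beside 51.3% of all genes. In these lists 0 genes were called, and 1 thalamic, 10 choroid plexus and 5 habenular genes had an unadjusted p under 0.05 by edgeR. The share over all genes was 3.25% with a positive slope. Striatal (23 of 24), microglial (14 of 14) and meningeal (14 of 15) slopes were mostly positive too. Hypothalamic (13 of 16) and GABA machinery (16 of 21) slopes were mostly negative. The part of RNA of other structures in the slopes was not tested. Without the 3 libraries over 1 CPM of Pou4f1, an exclusion chosen after their values were seen, Neurod1 had a slope of -0.0050, against 0.70 ± 0.27 with them. Neurod2 had a slope of 0.89 without these libraries (edgeR adjusted p = 0.108).

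**Figure D4:**
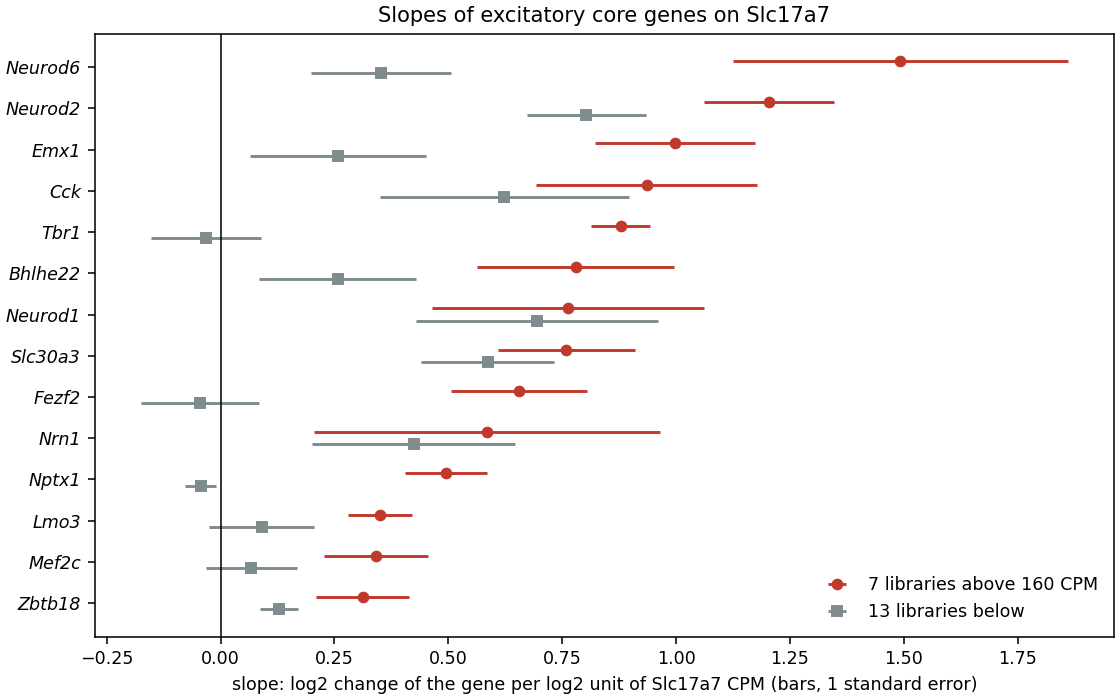
Slope of 14 core genes on Slc17a7 (log2 change per log2 unit of Slc17a7 CPM) with 1 standard error, in the 7 Slc17a7-rich libraries (red circles) and in the 13 other libraries (grey squares). All 14 red slopes are positive, and Tbr1, Nptx1 and Fezf2 sit at or just below 0 in grey.

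The split was next set against the labels, which it did not use. Slc17a7-rich libraries were 1 of 5 susceptible females, 2 of 5 control females, 1 of 5 susceptible males and 3 of 5 control males. This made 2 of 10 susceptible and 5 of 10 control libraries (Fisher's exact test, 2-sided, p = 0.350), and 4 of 10 male and 3 of 10 female libraries (p = 1). Slc17a7 averaged 198 ± 271 CPM in susceptible and 238 ± 247 CPM in control females (SD, n = 5 each; difference of mean log2 -0.69, exact 2-sided permutation p = 0.611). It averaged 72.4 ± 69.2 CPM in susceptible and 241 ± 226 CPM in control males (SD, n = 5 each; -1.86, exact permutation p = 0.0714, adjusted p = 0.214 over 6 tests).

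Neurod6 gave the only unadjusted p under 0.05 among these 6 tests. It averaged 0.773 ± 0.250 CPM in susceptible and 4.04 ± 3.75 CPM in control males (SD, n = 5 each; -1.77, exact permutation p = 0.0397, adjusted p = 0.214), where susceptible males had 0.377 to 1.05 CPM and control males 0.619 to 9.89 CPM, so that the groups overlapped. In females it averaged 6.09 ± 9.72 CPM in susceptible and 4.33 ± 6.53 CPM in control libraries (SD, n = 5 each; 0.34, exact permutation p = 0.651). Control males and control females differed by 0.21 for Slc17a7 and by 0.32 for Neurod6 (exact permutation p = 0.849 and 0.746, n = 5 each). The smallest p that 5 against 5 libraries allow is 0.00794.

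In the fit across all genes, no gene was called for stress in females, in males or for the difference between the sexes (0.0% of 14884 in each; edgeR, smallest adjusted p = 0.774, 0.405 and 0.587). At an unadjusted p under 0.05 there were 871 (5.85%), 1439 (9.67%) and 1230 genes (8.26%), and DESeq2 called 0, 24 and 0. Among the 16 core genes, 2 had positive and 14 negative estimates in males (median log2 fold change -0.66, beside 47.5% of all genes positive), with Slc17a7 at -1.74 ± 0.996 (edgeR adjusted p = 0.600) and Neurod6 at -2.38 ± 1.08 (0.498). In females 7 were positive and 9 negative (median -0.07, beside 51.6% of all genes positive), with Slc17a7 at -0.20 ± 0.97 (edgeR adjusted p = 0.961). The female effect minus the male effect was positive for 13 of 16 core genes (median 0.55, beside 52.4%), and 0 of them passed the test.

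These medians moved with the Slc17a7-rich libraries. Without all 7 of them, the core median was 0.10 in females and -0.20 in males, and with log2 Slc17a7 as a covariate it was 0.14 in females and 0.00 in males. Slc17a7, by whose level these libraries were chosen, is itself a core gene. A change of the core medians was thus partly built into these settings. Whether stress affected the core genes apart from Slc17a7 was not tested by them. Leaving out susceptible female 5 alone gave a female core median of -0.98 with 1 of 16 genes positive, and leaving out control female 5 gave 0.32 with 12 of 16 positive. In males the core median was -0.29 without control male 5 and -0.85 without susceptible male 5. The core estimates for stress in females thus changed sign with a single library.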

How the data were processed

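Polyadenylated RNA of 20 mouse BNST libraries was sequenced as paired reads, per the labels' protocols. The authors deposited raw counts per gene for each library, and the submitters' processing notes name HISAT2, featureCounts and the mm10 assembly. Versions, annotation and strand setting were not given in the sources used here. Reads shared by overlapping or near-identical genes cannot be separated. Groups came from the titles.

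CPM were computed from library totals of 14637636 to 17862840 counts. Of 19214 genes, 19206 were matched by identifier to GENCODE on GRCm38, and the 8 unmatched genes held 0.0026% of counts. Libraries over 160 CPM of Slc17a7 were set beside the rest by lowest, median and highest CPM and by the difference of median log2(CPM + 0.1), over genes averaging 1 CPM or more. Slopes on log2 Slc17a7 CPM within each side, and stress contrasts over all libraries with 1 mean per group, were fitted with the robust quasi-likelihood test of edgeR 4.0.16 (R 4.3.3; TMM, filterByExpr, Benjamini-Hochberg over all genes, threshold 0.05). Standard errors are the absolute estimate over the square root of F. Single genes were compared by exact permutation tests and shares by Fisher's exact test (SciPy 1.17.1). The code was tested on simulated counts.

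The members, the 21 gene lists and the tests were chosen with earlier results of these data known. Genes were named by rule: the core list, the 15 largest and 8 smallest differences among genes without overlap, the 12 highest and 6 lowest Spearman's rho, and up to 4 members of each other list with the largest differences, predicted gene models left out. Values of 2 list members are not reported here, though list counts and medians include them. A habenular list, the sex term and leaving out libraries with over 1 CPM of Pou4f1 were added after seeing the data. Alternatives were other thresholds, pseudocounts, floors, filters and scalings, DESeq2 1.42.0, a replicate block, and leaving out libraries. Total depth sets the precision of low genes, and the labels mention no molecular identifiers.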

Additional observations from a re-analysis of the deposited data

Results flagged for a closer look

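Among 28 genes tested in 4 groups of 5 libraries (112 sets), 23 held a library whose gap to its nearest neighbour exceeded Dixon's limit, where chance flags about 1 set in 20. The genes move together across libraries, so the 23 are not separate events. The genes tested include Slc17a7, which set the split, core genes and genes picked because the sides did not overlap. In a group with only 1 Slc17a7-rich library, a flag on that library therefore follows partly from the choice of genes. The rate of 1 set in 20 is for normally distributed values of genes chosen without such knowledge. The limit was applied to CPM without a log, where high values stretch the scale. An excess over chance was therefore not tested.

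Susceptible female 5 stood above the other susceptible females in 12 of them: Slc17a7 at 671 CPM (17.5 to 142 in the other 4), Neurod6 at 23.4 (1.08 to 3.07), Neurod2 at 39.8 (0.738 to 3.85), Tbr1 at 77.2 (4.40 to 19.9) and Emx1 at 3.83 (0.227 to 1.14). The same library held 44.5 CPM of Slc30a3 (2.29 to 8.91 in the other 4), 197 of Nptx1 (72.4 to 84.5), 23.4 of Mas1 (1.59 to 6.14), 22.6 of Rtn4rl2 (1.59 to 6.08), 22.1 of Rasl10a (2.27 to 7.53), 575 of Enc1 (222 to 303) and 107 of Pip4k2c (61.7 to 67.4).

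Susceptible male 2, the only Slc17a7-rich library of its group, stood above the other susceptible males in Neurod2 at 8.11 CPM (0.615 to 1.73), Tbr1 at 26.9 (12.6 to 15.2), Slc30a3 at 22.9 (1.30 to 5.73), Rtn4rl2 at 7.52 (2.39 to 3.72) and Ttc9b at 40.4 (22.1 to 26.6). Control male 5 stood above the other control males in Tbr1 at 71.2 CPM (14.4 to 26.4). Control female 5 stood above the other control females in Neurod6 at 15.9 CPM (0.899 to 2.59).

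The remaining 4 lay outside the Slc17a7-rich libraries. Neurod1 was 10.8 CPM in susceptible female 3 (0.482 to 3.23 in the other 4) and 5.53 CPM in susceptible male 5 (0.547 to 1.61), both of which held habenular Pou4f1. Cck was 56.2 CPM in susceptible male 5 (6.35 to 19.3) and, as a low value, 15.8 CPM in control female 4 (54.2 to 64.4).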

How the results depend on the processing

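The median difference of the core list kept its sign in every setting tried, and so did the slope of each core gene reported above the threshold. Moving the threshold to 100 CPM left 2 genes at least 2-fold higher and 6 higher and 10 lower at any fold without overlap. At 250 CPM these counts were 25, 63 and 19, with 1 gene at least 2-fold lower, and the male count of Slc17a7-rich libraries minus the female count was -2. Without libraries over 1 CPM of Pou4f1, 4 genes were lower without overlap. Leaving out single libraries gave 7 to 15 genes at least 2-fold higher, 0 to 1 at least 2-fold lower, 16 to 37 higher and 2 to 28 lower at any fold. By construction, the counts at any fold could not fall when a library was left out. DESeq2 called 37 genes below the threshold, 88 above it and 24 for stress in males. Leaving out libraries over 1 CPM of Pmch gave 1 call below and 4 above, leaving out those over 100 CPM of Ttr gave 16 above, where 2 female and 2 male libraries remained and both females had the higher Slc17a7, and a sex term gave 6 above. Leaving out single libraries gave 0 to 4 calls above the threshold and 0 to 2 for stress in females.

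Below the threshold the sign of some slopes turned. Without Ttr libraries Neurod1 was -0.034, Nrn1 -0.013, Tbr1 0.14 and Fezf2 0.081. Without Pou4f1 libraries Neurod1 was -0.0050, Tbr1 0.13 and Fezf2 0.026, and without Pmch libraries Tbr1 was 0.00153. Single libraries moved Tbr1 between -0.10 and 0.074 and Fezf2 between -0.13 and 0.024.

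Stress estimates also turned. Without the Slc17a7-rich libraries the female values were Slc17a7 0.20, Emx1 0.55 and Nptx1 0.082, and the male values Mef2c 0.17, Fezf2 0.10, Zbtb18 0.053 and Nptx1 0.074. With Slc17a7 as a covariate they were Tbr1 0.10, Emx1 0.36 and Nptx1 0.15 in females and Tbr1 0.089, Mef2c 0.40, Lmo3 0.31, Zbtb18 0.25 and Nptx1 0.012 in males. Leaving out single libraries moved the female estimates of Slc17a7 from -1.57 to 0.55, Neurod6 from -1.31 to 2.17, Neurod2 from -2.40 to 0.81, Neurod1 from -1.03 to 0.32, Tbr1 from -1.10 to 0.24, Emx1 from -1.22 to 0.87, Nptx1 from -0.42 to 0.25, Mef2c from -0.22 to 0.54, Fezf2 from -0.20 to 0.47, Lmo3 from -0.36 to 0.39 and Zbtb18 from -0.14 to 0.31. In males Neurod1 moved from -0.62 to 0.47 and Nrn1 from -0.47 to 0.40. In the permutation tests, Neurod6 moved from -0.41 to 1.04 for susceptible against control females and from -0.13 to 1.02 for control males against females, and Slc17a7 from -0.26 to 0.73 for the same controls. The causes were not tested. Leaving out libraries by their Slc17a7 level, or using that level as a covariate, shifts core estimates partly by design, since Slc17a7 is a core gene.

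Same-numbered susceptible and control libraries correlated over 0.1 in 6 of 10 pairs (-0.46 to 0.68), not in every pair. The highest value, 0.68, belonged to the females numbered 5, and the male pairs lay between 0.012 and 0.27. The labels name no shared animal, litter or day, so the number was not treated as a pairing. Its part in the Slc17a7 split was not tested. With the replicate block 0 genes were called for stress in females, in males and for their difference, and the female estimate of Neurod1 was -0.29.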
